A study of Mus musculus with 2 samples.

Results

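Glycolysis and hypoxia response genes were followed in cultured intestinal subepithelial myofibroblasts (ISEMFs), the contractile stromal cells that lie under the intestinal epithelium. The set held 33 genes, chosen by name for their role in the pathway from glucose uptake to lactate export or in the response to low oxygen, and all 33 were found among the 37309 genes measured (Pkm2 is the older symbol of Pkm). RNA was sequenced from 1 library of supportive ISEMFs, grown from the small intestine of neonatal wild type C57BL/6 mice, and 1 library of non-supportive ISEMFs, grown the same way from adult C57BL/6 mice. Supportive ISEMFs sustain enteroids without added R-spondin, and non-supportive ISEMFs do so only weakly. Both were expanded in low-glucose medium with serum, insulin, transferrin and epidermal growth factor. The deposited table attaches unlike, unexplained codes to the names of the libraries, and passage, oxygen and density at harvest are not given in the sources used here. With 1 library per population there is no replicate check, and population, age of the mice and culture history cannot be told apart.

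Glycolysis splits glucose into pyruvate in a chain of cytosolic enzymes, and pyruvate is then either burned in mitochondria or reduced to lactate and exported. Under low oxygen the prolyl hydroxylases of the Egln family stop marking the HIF alpha subunits for destruction. HIF alpha proteins then pair with Arnt and switch on genes for glucose uptake, glycolysis, lactate export and vessel growth, and also Egln3 itself. HIF alpha is controlled mainly as a protein, so its mRNA level does not report its activity.

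Levels are given as RPKM, the read count of a gene scaled by the authors to its exon length and to the size of its library. Log2 ratios set supportive against non-supportive ISEMFs after 0.1 was added to each RPKM, so that ratios of weakly expressed genes are drawn towards 0. A gene was compared if it reached RPKM 1 in either library, and a 2-fold difference on that log2 scale was counted. Fold differences are given with a 95% exact (Clopper-Pearson) interval from the reads, which compares these libraries and covers counting error only. Supportive ISEMFs gave 50674472 reads on genes and non-supportive ISEMFs 49615497.

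Most of the set was lower in supportive ISEMFs. Of the 33 genes, 30 reached RPKM 1 and 3 did not (Aldoc, Pgam1 and Car9). A 2-fold difference was found for 14 of the 30, against a background of 18.3% of the 10086 genes compared. Of these, 11 were lower (background 9.27%), namely Adm, Slc16a3, Egln3, Pgk1, Ankrd37, Slc2a1, Eno1, Pdk1, Bnip3, Gapdh and Ldha. The other 3 were higher (background 9.01%), namely Epas1, Ndrg1 and Eno2. Slc16a3, Bnip3, Ankrd37, Eno1 and Gapdh reached RPKM 1 only in the non-supportive library, where they were high. Likewise, Eno2 and Ndrg1 reached it only in the supportive library. The background genes passed the same filter. The median log2 ratio of the 30 was -0.56, against -0.07 over all genes compared, and 22 of the 30 were below 0, against 55.3% of all genes compared. The exact interval lay above 1 for 8 of the 30 (background 36.2%) and below 1 for 21 (background 46.1%), with P4ha1 the exception. At this depth the interval left out 1 for 82.3% of all genes compared. For each of the 14 genes the whole interval lay past 2-fold.

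**Figure D1:**
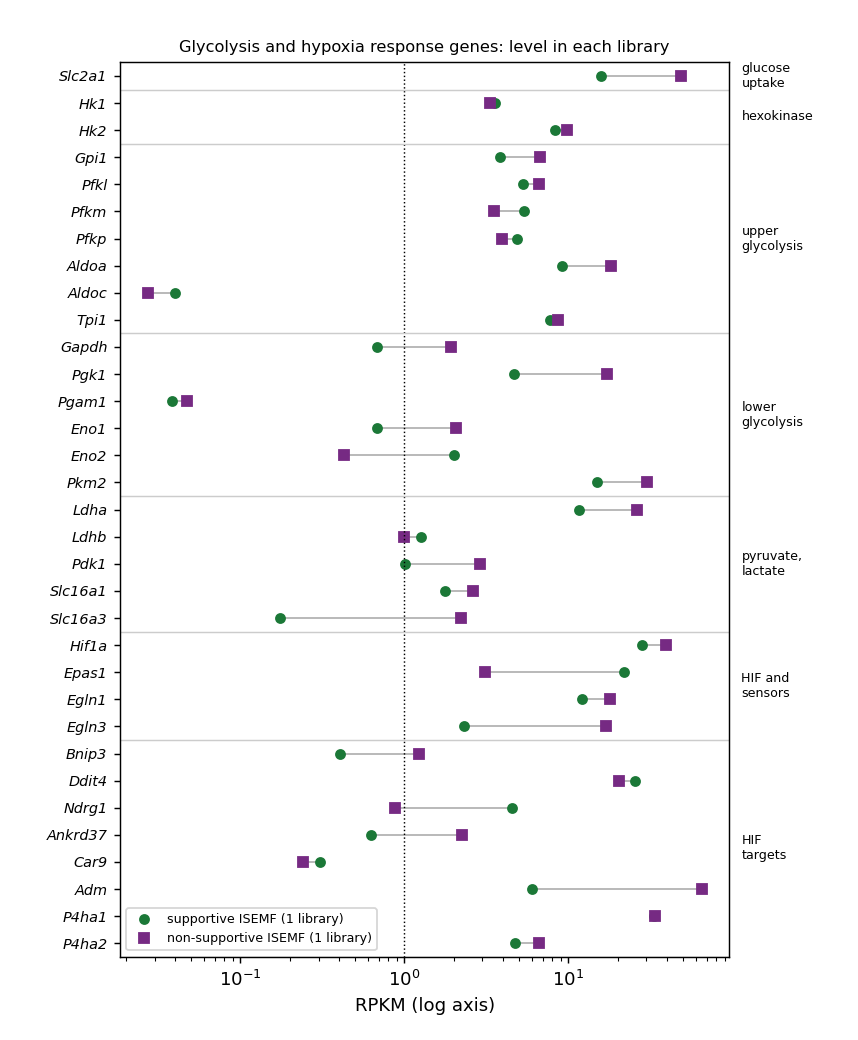
Level of the 33 genes in the library of supportive ISEMFs (circles) and of non-supportive ISEMFs (squares), as RPKM on a log axis, grouped by role, with a dotted line at RPKM 1. Adm shows the widest gap among the genes lower in supportive ISEMFs by RPKM units (6.03 against 65.0), while Epas1, Ndrg1 and Eno2 lie the other way.

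The promoters of the genes that differed most are shown because HIF binds the core letters ACGTG or GCGTG. Sequences are the 250 bases before the gene's start from RefSeq (GRCm38.p6, a later build than the mm9 of the read counts), read 5′ to 3′ on the strand of the gene. Capitals mark each ACGTG or GCGTG on either strand, so that CACGT and CACGC count as well and neighbouring matches can overlap.
Adm, chr7:110627407-110627656, plus strand: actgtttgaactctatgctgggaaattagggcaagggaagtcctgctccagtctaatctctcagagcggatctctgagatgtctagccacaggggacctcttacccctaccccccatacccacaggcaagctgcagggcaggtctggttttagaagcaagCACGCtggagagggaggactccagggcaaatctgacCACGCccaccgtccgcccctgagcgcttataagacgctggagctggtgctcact
Slc16a3, chr11:120948817-120949066, plus strand: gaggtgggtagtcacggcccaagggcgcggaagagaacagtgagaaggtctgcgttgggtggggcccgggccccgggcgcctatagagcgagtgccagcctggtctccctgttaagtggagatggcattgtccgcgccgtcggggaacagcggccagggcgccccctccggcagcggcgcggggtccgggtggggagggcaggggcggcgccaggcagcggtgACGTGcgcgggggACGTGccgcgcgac
Egln3, chr12:54203875-54204124, minus strand: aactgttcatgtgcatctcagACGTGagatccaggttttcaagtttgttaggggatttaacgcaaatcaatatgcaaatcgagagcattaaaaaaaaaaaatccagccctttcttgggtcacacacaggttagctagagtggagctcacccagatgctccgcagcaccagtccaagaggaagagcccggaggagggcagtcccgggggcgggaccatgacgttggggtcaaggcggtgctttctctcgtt
Pgk1, chrX:106186850-106187099, plus strand: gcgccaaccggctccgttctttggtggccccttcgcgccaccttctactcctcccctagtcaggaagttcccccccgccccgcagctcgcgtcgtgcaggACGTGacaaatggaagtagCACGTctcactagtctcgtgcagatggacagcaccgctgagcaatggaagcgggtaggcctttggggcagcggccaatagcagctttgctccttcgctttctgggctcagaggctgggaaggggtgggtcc
Ankrd37, chr8:45999851-46000100, minus strand: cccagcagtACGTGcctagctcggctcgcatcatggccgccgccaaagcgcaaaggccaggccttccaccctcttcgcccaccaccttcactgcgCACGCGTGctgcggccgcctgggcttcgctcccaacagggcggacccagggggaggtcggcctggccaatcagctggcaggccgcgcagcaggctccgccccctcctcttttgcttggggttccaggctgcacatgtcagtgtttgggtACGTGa
Slc2a1, chr4:119108495-119108744, plus strand: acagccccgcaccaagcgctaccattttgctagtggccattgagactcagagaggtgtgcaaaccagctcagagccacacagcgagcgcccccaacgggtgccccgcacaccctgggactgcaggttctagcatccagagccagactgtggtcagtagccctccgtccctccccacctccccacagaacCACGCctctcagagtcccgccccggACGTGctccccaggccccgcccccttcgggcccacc
The promoter of Eno2, which differed in the other direction, follows.
Eno2, chr6:124769674-124769923, minus strand: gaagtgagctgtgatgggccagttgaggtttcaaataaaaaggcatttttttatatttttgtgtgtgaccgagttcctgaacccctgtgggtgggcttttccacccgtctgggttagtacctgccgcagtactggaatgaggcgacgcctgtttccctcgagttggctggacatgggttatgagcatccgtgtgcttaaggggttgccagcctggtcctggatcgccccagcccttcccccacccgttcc
Of the 33 genes, 31 had at least 1 promoter window in the table, and Epas1 and Ndrg1 had none. A match in at least 1 window was found for 28 of the 31, among them each of the 11 genes that were 2-fold lower. The 2 matches of Slc16a3 lay within the last 27 bases before the start, those of Pgk1 began 150 and 131 bases before it, and the single match of Egln3 began 229 bases before it. Eno2 had 0 matches in these letters. A motif this short is common: 38.6% of all 32851 windows held a match, as did 57.07% of the windows of genes with an RPKM of at least 1 and 81.4% of the 43 windows of the set. Among windows of expressed genes whose number of CG pairs lay within the middle range of the set, the share was 60.18%. These shares are by window, while the counts above are by gene, which can have several windows. By window, a match was found in 93.33% of the 15 windows of the 2-fold lower genes. For members within 2-fold it was found in 73.91% of 23 windows. The windows of the lower genes also held more CG pairs, at a median of 17 against 14. Each motif holds a CG pair, and no share was matched to the CG pairs of the lower genes. A match is a description of the letters and not a site of binding.

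The mRNA of the glucose transporter was lower in supportive ISEMFs, while the hexokinases stayed within 2-fold. Slc2a1 encodes Glut1, the main glucose transporter of fibroblasts. It had 3910 reads (RPKM 15.9) in the supportive library, and 11608 reads (RPKM 48.6) in the non-supportive one. The level in supportive ISEMFs was 3.05-fold lower (95% interval, 2.95 to 3.17), a log2 ratio of -1.61. Slc2a1 spans chr4:118781316-118809935 of mm9 (plus strand). The hexokinases, which trap glucose in the cell as glucose 6-phosphate, were nearly level. Hk2, the inducible form, was at RPKM 8.26 in supportive and 9.84 in non-supportive ISEMFs. Hk1, the form found in most tissues, was at 3.57 and 3.36. Neither reached a 2-fold difference, and Hk2 had the higher deposited RPKM of the pair in both libraries. The merged exons behind RPKM were 3.32 times as long as the mRNA for Hk1 and 1.24 times for Hk2. Which of the pair ranks higher can therefore depend on the length used.

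In upper glycolysis none of the 6 genes compared reached 2-fold. Of the phosphofructokinase subunits, which form the committed step, Pfkl (the liver type) was at RPKM 5.31 in supportive and 6.68 in non-supportive ISEMFs. Pfkm (the muscle type) went the other way, at 5.40 and 3.52, as did Pfkp (the platelet type), at 4.85 and 3.96. These forms had nearly equal deposited RPKM in supportive ISEMFs, while Pfkl led in non-supportive ISEMFs with 47.1% of the family's summed RPKM. RPKM is over merged exons, which were 2.79 times as long as the mRNA for Pfkp, 1.31 times for Pfkl and 1.09 times for Pfkm. The order of the forms within a library therefore depends on the length used. The odds of a Pfkm read against a Pfkl read were 1.93 times as high in the supportive library (95% exact interval, 1.73 to 2.15). Such an odds ratio between the libraries does not depend on library size or gene length. Aldoa, the main aldolase outside liver and brain, was just short of the threshold, with RPKM 9.19 against 18.3 and a log2 ratio of -0.98. Tpi1, triose phosphate isomerase, was at 7.71 and 8.72. Gpi1, which turns glucose 6-phosphate into fructose 6-phosphate, was at 3.83 and 6.77. Aldoc, the brain aldolase, had 15 reads in supportive and 10 in non-supportive ISEMFs.

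Lower glycolysis, where ATP is made, held 3 genes that were 2-fold lower and 1 that was higher among the 5 compared. Pgk1, phosphoglycerate kinase, had 944 reads (RPKM 4.64) in supportive ISEMFs against 3402 reads (RPKM 17.2). It was 3.71-fold lower (95% interval, 3.45 to 3.99). Pgk1 spans chrX:103382439-103399038 of mm9 (plus strand). Pkm2, which counts both pyruvate kinase M isoforms, had 3253 reads against 6328 and RPKM 15.0 against 30.0. With the 0.1 added it fell just inside 2-fold, and its interval was 1.92-fold to 2.09-fold lower. Ldha was the member nearest to the threshold on the other side. Gapdh had 133 and 364 reads and was 2.82-fold lower (95% interval, 2.30 to 3.46). The study's qPCR used GAPDH as its housekeeping gene, and whether GAPDH differed by qPCR was not tested here. Only 12.0% of the stretches of the Gapdh mRNA had no second match in the genome, as described below. Pgam1, phosphoglycerate mutase, had 5 and 6 reads, too few to compare.

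The enolase genes differed in opposite directions. Eno1, the ubiquitous form, had 383 reads (RPKM 0.682) in supportive ISEMFs against 1126 reads (RPKM 2.06), and was 3.03-fold lower (95% interval, 2.69 to 3.41). Eno2, the form named for neurons, had 1681 reads (RPKM 2.01) against 348 reads (RPKM 0.428). It was 4.69-fold higher (95% interval, 4.18 to 5.28). Eno2 spans chr6:124710071-124719691 of mm9 (minus strand). The odds of an Eno2 read against an Eno1 read were 14.2 times as high in supportive ISEMFs (95% exact interval, 12.0 to 16.8). Eno3, the muscle form and not one of the 33, was at RPKM 8.50 and 4.98 and had the highest deposited RPKM of the family in both libraries. That order depends on how much of the Eno1 mRNA could be counted, as described next, and on the length used for RPKM. With each RPKM divided by the countable share of the mRNA, Eno1 made 72.4% of the family in non-supportive and 30.8% in supportive ISEMFs. This division mixes lengths, since RPKM is over merged exons and the share is over a single mRNA. The merged exons of Eno1 were 3.88 times as long as that mRNA, and those of Eno2 4.19 times. For Eno3 they were 2439 bases against 1564. The order of Eno1 and Eno3 in supportive ISEMFs is therefore not settled.

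Deposited levels of several glycolytic enzymes may be limited by copies elsewhere in the genome. The authors kept reads with a single hit, and many glycolytic genes have processed pseudogenes. For each gene the mRNA of the longest coding sequence in the GENCODE vM1 annotation of mm9 was divided into all stretches of 50 bases, the length of the reads, and each was searched in the chromosomes with up to 2 mismatches outside the gene itself. In 22 of the 33 genes at least 85.4% of the stretches had no second match. In the other 11 the share was at most 34.5%: Pgam1 5.16%, Pgk1 6.70%, Bnip3 9.14%, Gapdh 12.0%, Eno1 14.5%, Gpi1 17.2%, Ldhb 17.6%, Pkm2 19%, Ldha 28.0%, Aldoa 31.8% and Tpi1 34.5%. All but Bnip3 encode enzymes of glycolysis or lactate formation. With only exact second matches counted, the share was 58.6% (Pkm2) to 85.2% (Aldoa) for Pkm2, Ldhb, Gpi1, Ldha, Tpi1 and Aldoa, and 38.3% for Bnip3. It stayed low for Pgk1 (7.1%), Pgam1 (8.14%), Gapdh (14.4%) and Eno1 (27.8%). Whether the aligner dropped reads whose second match held mismatches was not tested, and the countable share used here is the stricter one. In the 98 further genes examined, the median share was 100% and 6 were under 50%. The RPKM of 1.93 for Gapdh, at rank 7435 of all genes in the non-supportive library, therefore understates its mRNA, and levels of these 11 genes are set against other genes here only as family shares. Ratios between the libraries use the same countable stretches on both sides.

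**Figure D2:**
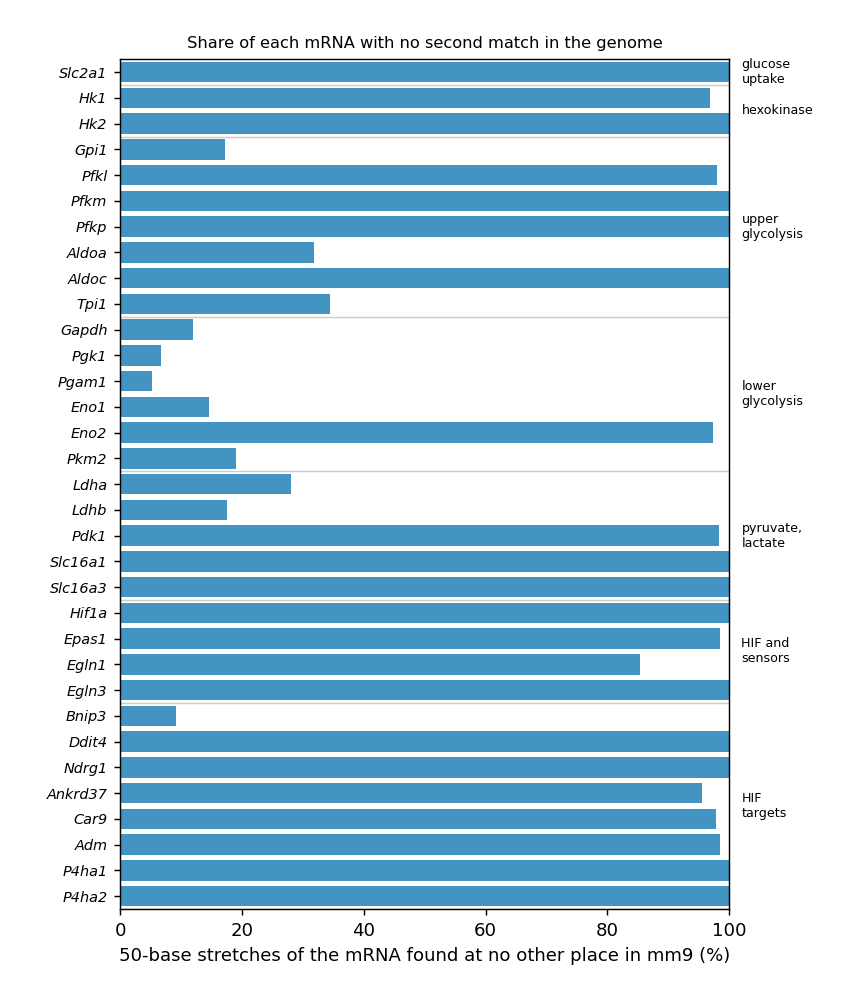
Share of 50-base stretches of the mRNA of each of the 33 genes with no other match in mm9 with up to 2 mismatches, in percent. The bars fall into a group of 22 genes at 85.4% or more and a group of 11 genes at 34.5% or less, most of them in glycolysis.

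Lower genes were found with and without copies. Among the 20 genes compared that had few second matches, 6 were 2-fold lower (background 9.27%) and 3 higher (background 9.01%). Their median log2 ratio was -0.40, against -0.07 over all genes compared. Among the 10 with many, 5 were lower and 0 higher, with a median of -1.07. Exons of annotated copies also collected reads. Gm1840, which has 1277 matching stretches of Gpi1, had 2962 reads in supportive and 4333 in non-supportive ISEMFs, more than Gpi1 itself with 1386 and 2381. The split of reads between such near-identical genes is uncertain, and their sum was at a ratio of 0.629 (95% interval, 0.606 to 0.654), against 0.566 for Gpi1 alone. The 5 copies of Aldoa together had 334 and 597 reads, a ratio of 0.544 (0.474 to 0.623), close to the 0.503 of Aldoa. The 94 copies of Gapdh with matching exons had 144 and 165 reads in all, and the interval of their ratio, 0.673 to 1.07, held 1. Gapdh itself had 133 and 364 reads, fewer than its copies in the supportive library. Its place among the 2-fold lower genes rests on its own reads alone. Gene and copies were not summed for Gapdh, and whether the call would hold for their sum was not tested.

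Of the 5 genes at the fate of pyruvate, 3 (Ldha, Slc16a3 and Pdk1) were 2-fold lower in supportive ISEMFs, and Ldhb and Slc16a1 stayed within 2-fold. Ldha, which reduces pyruvate to lactate, had 3897 reads (RPKM 11.7) against 8463 reads (RPKM 26.1), and was 2.23-fold lower (95% interval, 2.15 to 2.32). Ldhb, the form that favours lactate oxidation, had 178 and 135 reads and a log2 ratio of 0.33. The odds of an Ldhb read against an Ldha read were 2.86 times as high in supportive ISEMFs (95% exact interval, 2.27 to 3.62). Slc16a3 encodes Mct4, the lactate exporter of glycolytic cells. It had 110 reads (RPKM 0.176) in the supportive library and 1345 reads (RPKM 2.21) in the non-supportive one, and was 12.6-fold lower (95% interval, 10.4 to 15.4). Slc16a3 spans chr11:120809794-120822182 of mm9 (plus strand). Its relative Slc16a1, or Mct1, was at 1.77 and 2.64 and did not reach 2-fold. The odds of an Slc16a1 read against an Slc16a3 read were 8.43 times as high in supportive ISEMFs (95% exact interval, 6.72 to 10.6).

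Pdk1, a kinase that blocks pyruvate dehydrogenase and is induced by HIF, had 791 reads (RPKM 1.01) against 2208 reads (RPKM 2.91). It was 2.87-fold lower in supportive ISEMFs (95% interval, 2.65 to 3.12). The other kinases of pyruvate dehydrogenase went the other way. Pdk4, a kinase raised in fasting, was 2-fold higher, at RPKM 4.21 against 1.61. Pdk2 was just short of 2-fold with the 0.1 added, at 3.70 against 1.85, and Pdk3 was at 4.25 against 2.96. The odds of a Pdk4 read against a Pdk1 read were 7.50 times as high (95% exact interval, 6.50 to 8.66). Pdk1 made 31.2% of the summed RPKM of the 4 kinases in non-supportive ISEMFs and 7.70% in supportive ISEMFs, while that sum was 9.34 in non-supportive and 13.2 in supportive ISEMFs. The merged exons of Pdk1 were 2.10 times as long as the mRNA, while those of Pdk4 were 3511 bases against 3484. The shares within a library therefore depend on the length used.

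**Figure D3:**
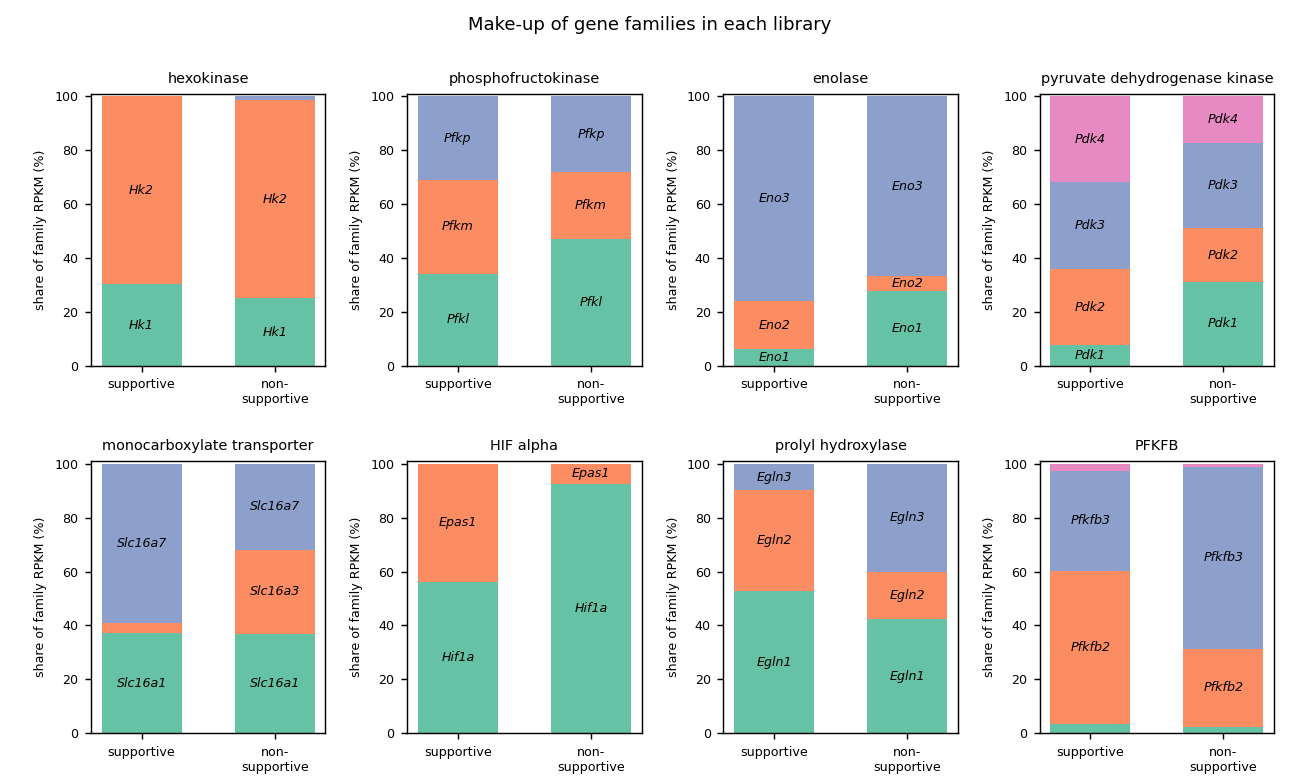
Share of each member in the summed RPKM of its gene family, in percent, with 1 bar for each library. Segments under 5% carry no label: Hk3, Pfkfb1 and Pfkfb4 at the ends of their bars and Slc16a3 in the supportive bar. Epas1 takes 43.8% of the HIF alpha bar in supportive and 7.32% in non-supportive ISEMFs, and the enolase bars rest on deposited RPKM, where little of Eno1 could be counted. RPKM is over merged exons, so the shares within a bar depend on the length used.

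The HIF alpha subunits differed in balance. Hif1a was the more abundant in both libraries, with 14023 reads (RPKM 28.2) in supportive ISEMFs and 19107 reads (RPKM 39.6) in non-supportive ISEMFs, a log2 ratio of -0.49. Epas1, which encodes HIF-2 alpha, had 8343 reads (RPKM 22.0) against 1153 reads (RPKM 3.13). It was 7.03-fold higher in supportive ISEMFs (95% interval, 6.61 to 7.49), the widest ratio among the 3 higher genes. Epas1 spans chr17:87153247-87232750 of mm9 (plus strand). The odds of an Epas1 read against a Hif1a read were 9.86 times as high in supportive ISEMFs (95% exact interval, 9.23 to 10.5), so that the RPKM of Hif1a was 1.28 times that of Epas1 there and 12.7 times in non-supportive ISEMFs.

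Of the oxygen sensors, Egln1 (Phd2), the main hydroxylase of HIF in most cells, was at RPKM 12.2 and 18.0 and did not reach 2-fold. Egln3 (Phd3), itself a HIF target, had 438 reads (RPKM 2.30) in supportive ISEMFs against 3142 reads (RPKM 17.0). It was 7.38-fold lower (95% interval, 6.68 to 8.18). Egln3 spans chr12:55279968-55304847 of mm9 (minus strand). Egln3 had 9.92% of the summed RPKM of the 3 hydroxylases in supportive ISEMFs and 40.0% in non-supportive ISEMFs.

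The HIF targets did not move as one. Adm encodes adrenomedullin, a secreted peptide that widens vessels. It had 598 reads (RPKM 6.03) in the supportive library and 6266 reads (RPKM 65.0) in the non-supportive one, which placed it at ranks 3869 and 331 of all genes. It was 10.8-fold lower (95% interval, 9.91 to 11.7) and had the lowest log2 ratio of the set, -3.41, against -3.07 for Slc16a3, whose low RPKM weighs more with the 0.1 added. Adm spans chr7:117771175-117773331 of mm9 (plus strand). Ankrd37, a small ankyrin repeat gene, had 72 reads against 253 and was 3.62-fold lower (95% interval, 2.77 to 4.77). Bnip3, which marks mitochondria for removal, had 81 reads against 240 and was 3.05-fold lower (95% interval, 2.36 to 3.97), with few of its stretches countable.

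Ndrg1, a gene induced by stress and by differentiation as well as by low oxygen, went the other way. It had 2678 reads (RPKM 4.55) in supportive ISEMFs and 506 reads (RPKM 0.884) in non-supportive ISEMFs, and was 5.14-fold higher (95% interval, 4.68 to 5.67). Ndrg1 spans chr15:66760883-66801202 of mm9 (minus strand). Ddit4, which restrains mTORC1, was at RPKM 25.6 and 20.4. P4ha1, a collagen prolyl hydroxylase subunit, was level at 33.1 and 33.6, with a ratio of 0.985 and an interval of 0.963 to 1.01. P4ha2, a further subunit, was at 4.72 and 6.59. Car9, the carbonic anhydrase often used as a marker of hypoxia, stayed under RPKM 1, with 74 reads in supportive and 56 in non-supportive ISEMFs, and a difference was not detectable at this depth.

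**Figure D4:**
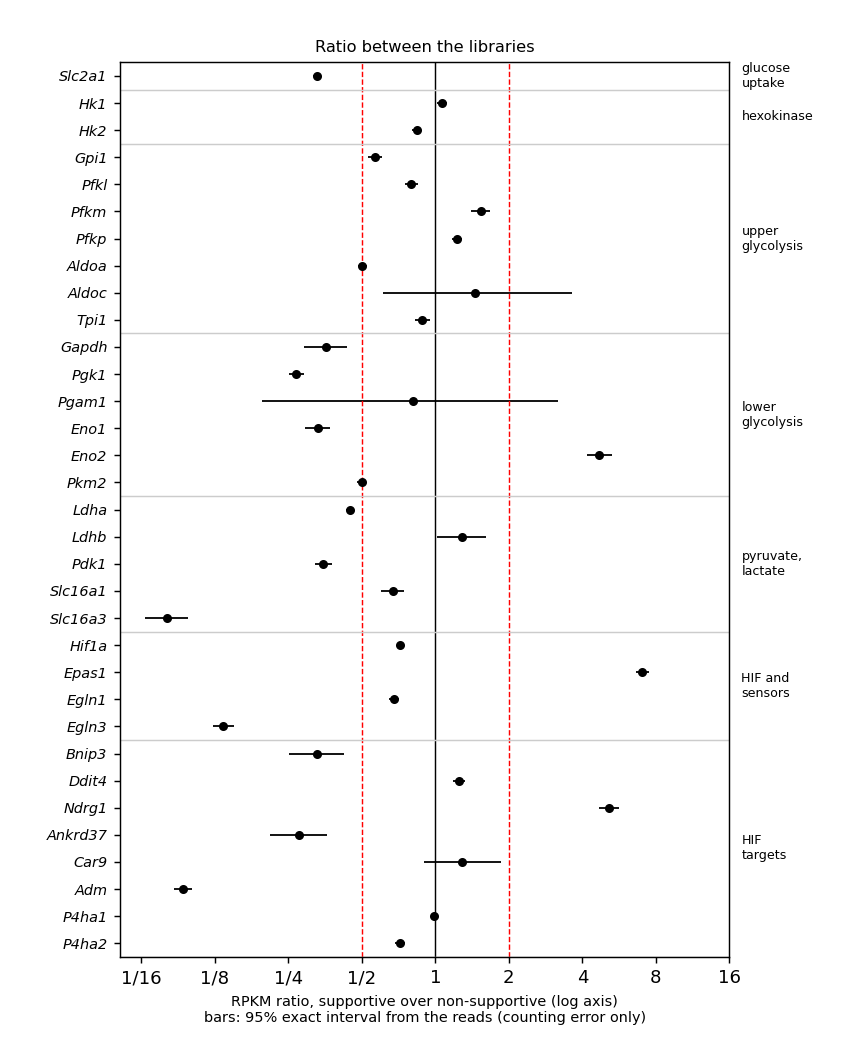
RPKM ratio of supportive over non-supportive ISEMFs for the 33 genes on a log axis, with bars for the 95% exact interval from the reads (counting error only) and dashed lines at 2-fold. Adm, Slc16a3 and Egln3 lie farthest to the left, Epas1, Ndrg1 and Eno2 farthest to the right, and the wide bars of Pgam1 and Aldoc come from few reads.

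Further genes of the same pathways were mixed in direction. Of 19 other glycolysis genes 5 were compared, 0 were 2-fold higher (background 9.01%) and 1 was 2-fold lower (background 9.27%). This was Pfkfb3, whose product raises the activator of phosphofructokinase, at RPKM 2.35 in supportive and 7.05 in non-supportive ISEMFs. The median log2 ratio of the 5 was 0.65, against -0.07 over all genes compared. Of 9 other genes that regulate HIF 8 were compared, and 2 were 2-fold lower (background 9.27%). Cited2, which competes with HIF for its coactivator, was at 16.8 and 45.6, and Arnt2 was at 0.449 and 1.08. Arnt, the usual partner of HIF alpha, was at 7.69 and 5.52.

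Of 19 other genes known as HIF targets, 17 were compared. Among these, 4 were 2-fold lower (background 9.27%) and 3 were 2-fold higher (background 9.01%). The median log2 ratio of the 17 was -0.41, against -0.07 over all genes compared. Stc1, a secreted glycoprotein, had 14 reads in supportive and 893 in non-supportive ISEMFs and was 65.6-fold lower (95% interval, 38.9 to 121). Tfrc, the transferrin receptor, was at RPKM 2.37 and 10.6, Hmox1, heme oxygenase, at 8.47 and 26.4, and Fam162a, a mitochondrial protein, at 60.5 and 136. The 3 higher genes were Ppp1r3c, a glycogen-targeting subunit of a phosphatase, at 8.49 and 0.720, Bhlhe40, a transcriptional repressor, at 57.2 and 12.6, and Higd1a, a mitochondrial protein, at 19.4 and 7.50. Vegfa, the best known HIF target, was at 14.9 and 21.5 and did not reach 2-fold.

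**Figure D5:**
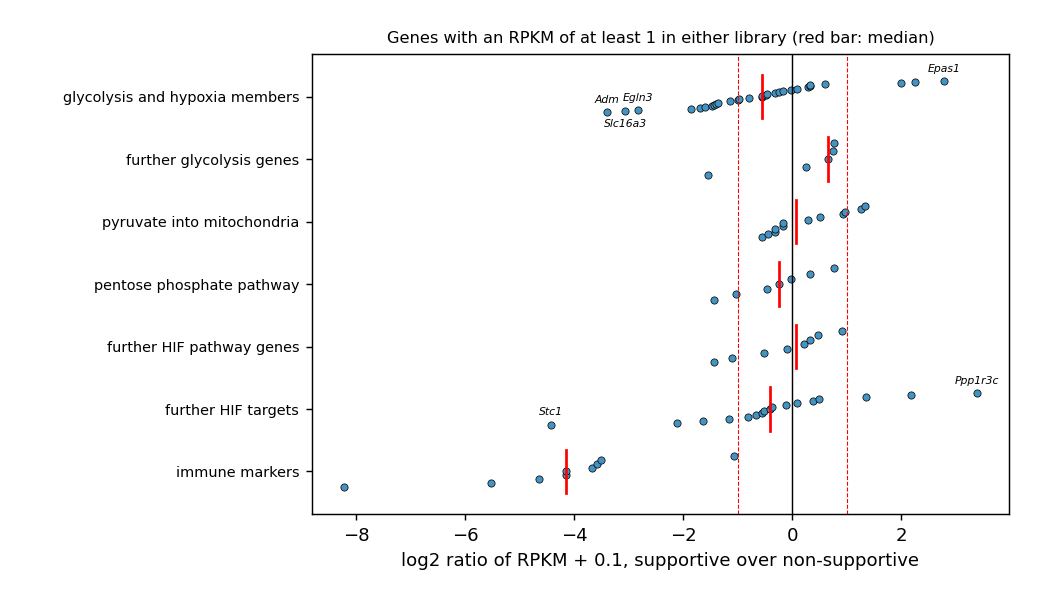
Log2 ratio of RPKM + 0.1, supportive over non-supportive ISEMFs, of each gene compared, by gene list, with red bars at the medians and dashed lines at 2-fold. The median was -0.56 for the glycolysis and hypoxia genes, -0.41 for further HIF targets, 0.65 for further glycolysis genes and -4.15 for immune markers.

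Markers of cell types also differed between the libraries. Acta2, the gene of α-SMA, was at RPKM 908 in supportive and 1410 in non-supportive ISEMFs, and Vim at 325 and 407, so both libraries had the myofibroblast markers, while Des was at 0.575 and 3.40. Of 10 immune genes, 9 were compared and all 9 were 2-fold lower in supportive ISEMFs (background 9.27%). Their summed RPKM over the 10 was 9.47 in supportive and 129 in non-supportive ISEMFs, and Ptprc, Tyrobp, Emr1 and Itgam had 0 reads in the supportive library. Lyz2, the lysozyme of macrophages, had the highest level of the list in both, at RPKM 6.31 and 72.7, and the others past 2-fold were Fcer1g, Cd68, Cd53 and Laptm5. Hk3, the hexokinase of myeloid cells, had 3 reads in supportive and 84 in non-supportive ISEMFs. In bulk RNA, fewer cells of a type and less RNA per cell cannot be told apart, and the part of immune cells in the differences of the 33 genes was not tested. Of the epithelial list only Lgr5 reached RPKM 1, with 6702 reads in supportive and 4 in non-supportive ISEMFs, Cdx2 and Chga had 0 reads in both libraries, and none of 5 endothelial genes reached RPKM 1. Mitochondrially encoded genes took 14.6% of all gene reads from supportive ISEMFs and 7.85% from non-supportive ISEMFs, which enters the library size of every RPKM.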

How the data were processed

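Per the study's methods, the authors made cDNA libraries from mRNA with the TruSeq kit, aligned single-end reads of 50 bases to mm9 with TopHat and Ensembl genes, kept unique hits with up to 2 mismatches, and counted reads with HTSeq. The submitters' processing notes name TopHat2 2.0.4, HTSeq 0.5.4p3 and DESeq, and the Ensembl release is not given in the sources used here. Deposited counts are whole numbers of reads for each gene. Deposited RPKM values are these counts over the length of the merged exons and the number of reads in the library, which the values put at 71463423 and 69449374 reads for supportive and non-supportive ISEMFs. That union was a median of 1.59 times as long as the mRNA used here (1 to 4.19 times), which lowers the RPKM of some genes. A deposited log2 ratio and DESeq p-values, which hold the authors' own comparison, and a table of Wnt pathway genes without any of the 33 were not used.

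With 1 library per population, edgeR's quasi-likelihood test cannot estimate the spread between replicates, so no test between populations was made. All 33 genes are accounted for, with those past 2-fold in full, and of the further pathway lists the genes past 2-fold are named. Hk3, Eno3, Arnt, Vegfa, Pdha1, Dlat, G6pdx and the pairs for ratios of reads were chosen after their values were seen. A gene of the further lists is not reported here. The genes and lists were chosen with earlier results of these data known. Copies count if their exons hold at least 100 matching stretches. A gene without reads may still have up to 3 reads' worth of RNA at this depth, and intervals cover counting error only. Alternatives were pseudocounts of 1 and 0.001, minimum RPKM of 5 or none, thresholds of 1.5-fold and 4-fold, TMM (edgeR 4.0.16) and median-of-ratios (DESeq2 1.42.0) scaling, a median log2 ratio of 0, and library sizes without mitochondrial genes. The intervals were tested on simulated reads that held counting error only, so that test does not cover spread between libraries. Python 3.11.15, numpy 2.4.6, scipy 1.17.1, numba 0.67.0, pandas 2.3.3, matplotlib 3.10.9 and R 4.3.3 were used. Coordinates are from GENCODE vM1, which holds all 33 genes.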

Additional observations from a re-analysis of the deposited data

How the results depend on the processing

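The 3 genes 2-fold higher and 11 lower in supportive ISEMFs were found in the same numbers under TMM, median-of-ratios, median-centred and non-mitochondrial scaling and with no minimum on RPKM. The background over all genes compared was 9.48% to 9.87% higher and 8.36% to 8.75% lower under these scalings. With no minimum it was 4.76% higher and 5.05% lower. A pseudocount of 1 gave 7 lower genes (background 6.16%) and 3 higher (background 5.73%). One of 0.001 gave 12 lower (background 9.75%) and 3 higher (background 9.53%). A minimum RPKM of 5 left 18 genes compared, with 1 higher (background 8.14%) and 5 lower (background 9.21%). A 4-fold threshold gave 2 higher (background 3.24%) and 3 lower genes (background 3.29%). A 1.5-fold threshold gave 4 higher (background 16.4%) and 14 lower (background 19.6%). The 20 genes with few second matches in the genome were an alternative chosen after seeing the data. Among them, 6 were lower (background 9.27%) and 3 higher (background 9.01%), and the median log2 ratio was -0.40. Over the settings the median lay between -0.57 and -0.40. Scaling moved single log2 ratios by 0.01 to 0.07 and all genes with them. None of the 198 values for single genes under 6 settings changed direction where the interval left out 1, and 139 stayed within it. Divided by the countable share of each mRNA, Eno2 made 13.5% of enolase RPKM in supportive and 2.24% in non-supportive ISEMFs, against 17.9% and 5.73%, and Ldhb made 14.7% and 5.68% of lactate dehydrogenase, against 9.75% and 3.64%. These divided shares still rest on the length of merged exons, which was 2.64 times that of the mRNA for Ldha and 1.51 times for Ldhb. No paired analysis was possible because each population has 1 library, and no library could be left out.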

Other observations

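Further genes around glycolysis were also compared. Of 14 genes for the entry of pyruvate into mitochondria, 12 were compared. In supportive ISEMFs 0 were 2-fold lower (background 9.27%) and 2 were 2-fold higher (background 9.01%). One was Pdk4, given above. The other was Pdp1, a phosphatase that reactivates pyruvate dehydrogenase, with 2337 reads (RPKM 7.26) against 937 reads (RPKM 2.99), which was 2.42-fold higher (95% interval, 2.25 to 2.62). The subunits of pyruvate dehydrogenase stayed within 2-fold, with Pdha1 at RPKM 26.9 and 30.4 and Dlat at 14.1 and 17.7.

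All 7 genes of the pentose phosphate pathway were compared, and 2 were 2-fold lower in supportive ISEMFs (background 9.27%). Taldo1, transaldolase, was at RPKM 2.53 and 7.02, and Pgd, which makes NADPH, at 4.44 and 9.21. G6pdx, the entry enzyme of the pathway, was at 7.34 and 5.84.

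Of 4 genes for receptors of adrenomedullin 1 was compared. Calcrl, the receptor subunit that binds the peptide, had 3392 reads (RPKM 6.13) in supportive ISEMFs and 608 reads (RPKM 1.13) in non-supportive ISEMFs, and was 5.42-fold higher (95% interval, 4.97 to 5.92). Its partners Ramp1, Ramp2 and Ramp3 did not reach RPKM 1 in either library, with 102, 1 and 0 reads in supportive and 38, 2 and 52 reads in non-supportive ISEMFs.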
